A study of Mus musculus with 16 samples.

Results

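Liver RNA of 4 mice on an intermittent diet (INT) was compared with that of 4 mice on the control diet (C), 8 of the 16 mice in the series. The members were taken from the diet label alone. All mice were male C57BL/6J, 12 months old, and had been on their diet since 9 weeks of age. C mice ate AIN-93W ad libitum. INT mice alternated weekly between a medium-fat diet (MF, 25% of the energy from fat), eaten freely, and a week at 40% calorie restriction, and were killed in an MF week. In each diet 2 mice had a high and 2 a low body weight for that diet. Of each such pair 1 mouse received 0.5% carboxymethyl cellulose by gavage (mock) and the other 160 mg/kg of the PPARα agonist Wy-14643 in it (Wy). The gavage followed a fast of 4 h, and the fast went on for another 6 h until death. Arrays are named by body weight class, diet and treatment, for example low INT mock. The 8 other mice, on MF throughout or on 30% calorie restriction (CR), entered the estimate of the spread. Each array is 1 mouse of whole liver, so the n is the number of mice. The labels give body weight as a class only.

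The liver takes up fatty acids, makes new ones from sugar when food is plentiful, and stores the surplus as triglyceride in lipid droplets, which droplet proteins such as those of the CIDE and perilipin families coat and fuse. The transcription factors SREBP1c and ChREBP drive the genes of fatty acid synthesis after feeding, SREBP2 those of cholesterol synthesis when sterols run low, and PPARα those of fatty acid oxidation during fasting. In a fatty liver, resident macrophages (Kupffer cells) are joined by macrophages that derive from monocytes, some of which carry a set of lipid-handling genes. Growth hormone, released in pulses in males, keeps a set of liver genes higher in males and another set higher in females.

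Over the tested genes the array medians lay between 7.07 and 7.21 (log2), and the 8 INT and C arrays correlated with each other at 0.986 to 0.994. Of 13 hepatocyte markers 12 were tested, all at log2 levels of 11.2 to 13.4, and none passed the test between the diets. Both INT arrays of high body weight carried another array code in the labels than the other 14 arrays. Among mice of high body weight the INT diet and the array code therefore cannot be told apart.

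In the fit over all mice, which took treatment and weight class into account, 1 of 14275 genes (0.00701%) was called between INT and C at an adjusted p under 0.05. This gene was Med12l, which encodes a relative of the Mediator subunit MED12, a part of the complex that links transcription factors to RNA polymerase II. Its log2 level was 5.23 and 4.82 in the low and high C mock mice and 5.24 and 5.06 in the low and high C Wy mice. In the INT mice it was 6.06 and 5.66 (low and high, mock) and 6.20 and 5.85 (low and high, Wy). All 4 INT mice were above all 4 C mice. The rise was 1.81-fold, 0.86 ± 0.09 on the log2 scale (SE, limma adjusted p = 0.0025), from a mean of 5.09 ± 0.20 to 5.94 ± 0.24 (SD, n = 4 each). It was close in size in mice of high (0.82) and low (0.90) body weight and in mock (0.84) and Wy (0.88) mice, and the difference between the body weight classes did not pass the test (-0.08 ± 0.18, adjusted p = 0.943). The mice on MF throughout lay between 5.15 and 5.69, and the CR mice between 5.90 and 6.48, so the INT range overlapped that of both. With the array code as a term the difference was 0.87 but no longer called (adjusted p = 0.102).

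RefSeq places 7 other genes inside the span of Med12l, of which 5 were tested, among them receptors of nucleotides that macrophages and other blood cells carry. None was called. P2ry14 stood at -0.39 ± 0.16 (adjusted p = 0.472), P2ry13 at -0.01 ± 0.16 and P2ry12 at -0.0004 ± 0.14. Med12, the paralog on another chromosome, stood at -0.02 ± 0.08 (adjusted p = 0.963). These genes were looked up after the value of Med12l was known.

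**Figure D1:**
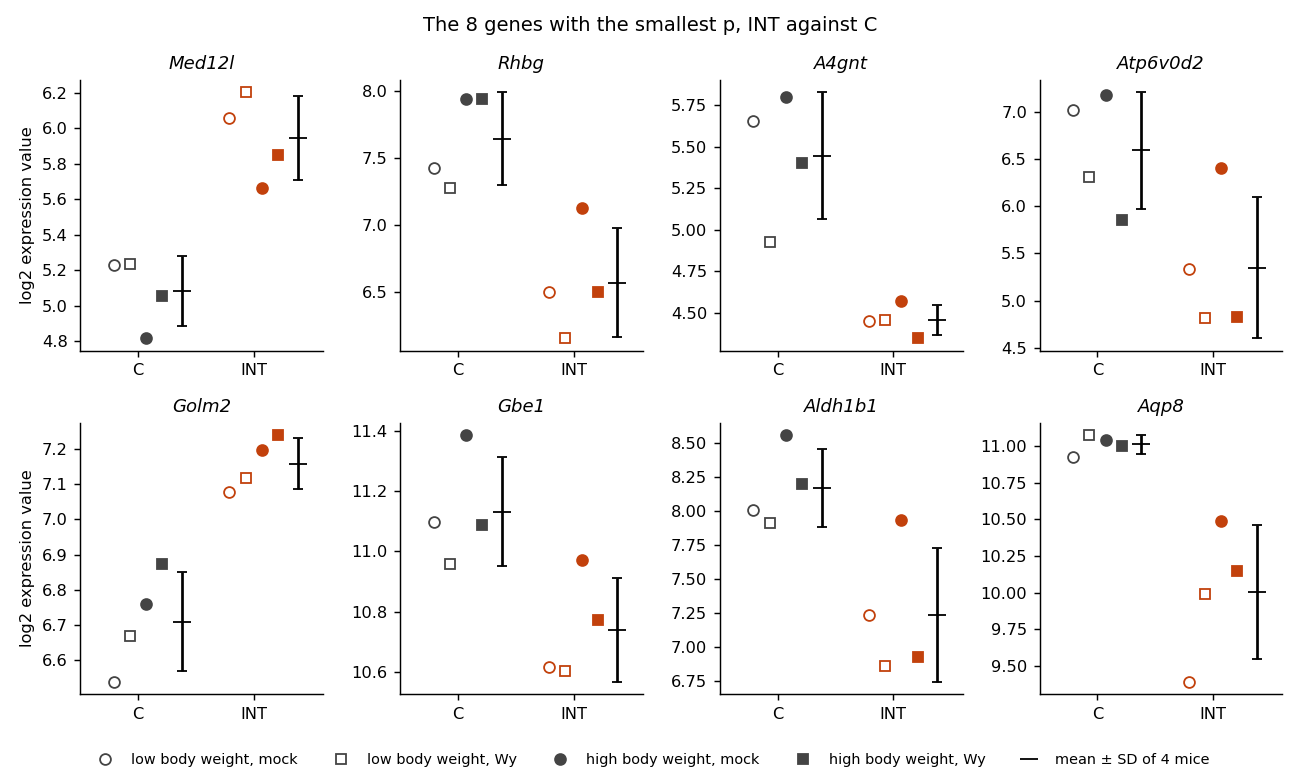
Log2 expression values (vertical axes, a separate scale for each gene) of the 8 genes with the smallest p between INT and C, 1 point per mouse, with the mean ± SD of 4 mice beside each diet. Open points are mice of low and filled points of high body weight, circles mock and squares Wy. Med12l is the single gene called; Med12l and Golm2 were higher in each of the 4 INT mice than in any C mouse, and Rhbg, A4gnt and Aqp8 lower, while Atp6v0d2, Gbe1 and Aldh1b1 overlapped by 1 or more mice.

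The genes next in order of p did not pass the test, and their values are given as such. Golm2, a Golgi membrane protein, had 6.54, 6.67, 6.76 and 6.87 in the C mice (low mock, low Wy, high mock, high Wy) and 7.08, 7.12, 7.20 and 7.24 in the INT mice. The difference was 0.45 ± 0.07 (adjusted p = 0.0687). Nup62cl, which resembles the nuclear pore protein NUP62, ran from 4.34 to 5.60 in C and from 5.89 to 6.82 in INT mice (1.46 ± 0.25, adjusted p = 0.081). Both genes were without overlap between the diets. Unc13b (0.73), which primes vesicles for release, Zfp830 (0.45), the terminal complement component C6 (0.57), Rbm19 (0.36), a factor of ribosomal RNA processing, and Zfp949 (0.31) followed, with adjusted p from 0.129 to 0.171.

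On the lower side, Rhbg, an ammonia transporter of the hepatocytes around the central vein, was at 7.42, 7.27, 7.94 and 7.94 in the C mice and 6.50, 6.15, 7.12 and 6.50 in the INT mice in the same order. The difference was -1.08 ± 0.16 (adjusted p = 0.0557), and no INT mouse reached the lowest C mouse. A4gnt, a glycosyltransferase of mucin glycans, ran from 4.93 to 5.80 in C and from 4.35 to 4.57 in INT mice, close to the low-intensity limit of 4.32 (-0.99 ± 0.15, adjusted p = 0.0557). Atp6v0d2, a subunit of the proton pump that acidifies lysosomes, was at 7.02, 6.31, 7.17 and 5.86 in the C mice and at 5.33, 4.82, 6.41 and 4.83 in the INT mice (-1.24 ± 0.19, adjusted p = 0.0557). The high INT mock mouse lay within the C range. Aqp8, a water channel of hepatocytes, held a narrow range in C mice (10.93 to 11.07) and a wide, lower one in INT mice (9.39 to 10.49; -1.01 ± 0.17, adjusted p = 0.081). The mitochondrial aldehyde dehydrogenase Aldh1b1 (-0.93), the sulfotransferase Sult1c2 (-0.89) and the kinase Cilk1 (-0.40) had adjusted p of 0.081 to 0.0881. For the 8 genes named by rule on this side, Gbe1 included, INT was below C in each of the 4 comparisons of mice of the same class and treatment. They were picked by small p in these same mice, so the shared direction is no separate evidence.

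Over all genes the median INT minus C difference was -0.0041. At an unadjusted p under 0.05, 629 genes were higher (4.41%) and 776 lower (5.44%) in INT. No overlap between the 4 INT and 4 C mice was seen for 203 genes higher (1.42%) and 216 genes lower (1.51%) in INT. The following counts of list members over all mice are to be read against these shares. None of the 712 tested genes of the 47 lists was called over all mice.

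Genes of fatty acid synthesis from sugar were lower in INT livers, a group with 16 of 25 tested genes lower and 0 higher at an unadjusted p under 0.05. None of the 16 was called (limma adjusted p of 0.124 at best), and the median difference of the list was -0.26. In 7 of its genes the diets did not overlap. Fasn, the fatty acid synthase, was at 11.61, 11.90, 11.50 and 11.70 in the C mice (low mock, low Wy, high mock, high Wy) and at 10.85, 11.23, 11.20 and 11.17 in the INT mice. All INT mice lay below the lowest C mouse (-0.56 ± 0.11, adjusted p = 0.124). Pgd, which makes NADPH in the pentose phosphate pathway, ran from 9.39 to 9.90 in C and from 8.87 to 9.14 in INT mice (-0.63 ± 0.14, adjusted p = 0.163). Thrsp, a lipogenic protein that responds to thyroid hormone, was at 11.57, 11.53, 12.04 and 11.28 in the C mice. In the INT mice it was at 10.43, 9.73, 11.70 and 10.44, so the high INT mock mouse was within the C range (-1.03 ± 0.21, adjusted p = 0.129). Pklr, the pyruvate kinase of the liver, differed by -0.44 ± 0.09 (adjusted p = 0.124), from 11.78 to 12.15 in C and from 11.33 to 11.82 in INT mice. At an unadjusted p under 0.05, 13 of the 25 genes were lower in low body weight (median -0.32) and 8 in high body weight (median -0.19). Over all tested genes the shares lower at that threshold were 2.97% in low and 8.86% in high body weight. Below 0 stood 22 of the lipogenesis genes in low and 21 in high body weight. A difference between the classes was not called for any of them. The CR mice, at 12.34 to 12.86 for Fasn, were above both diets, and the mice on MF throughout, at 11.13 to 11.63, overlapped both.

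**Figure D2:**
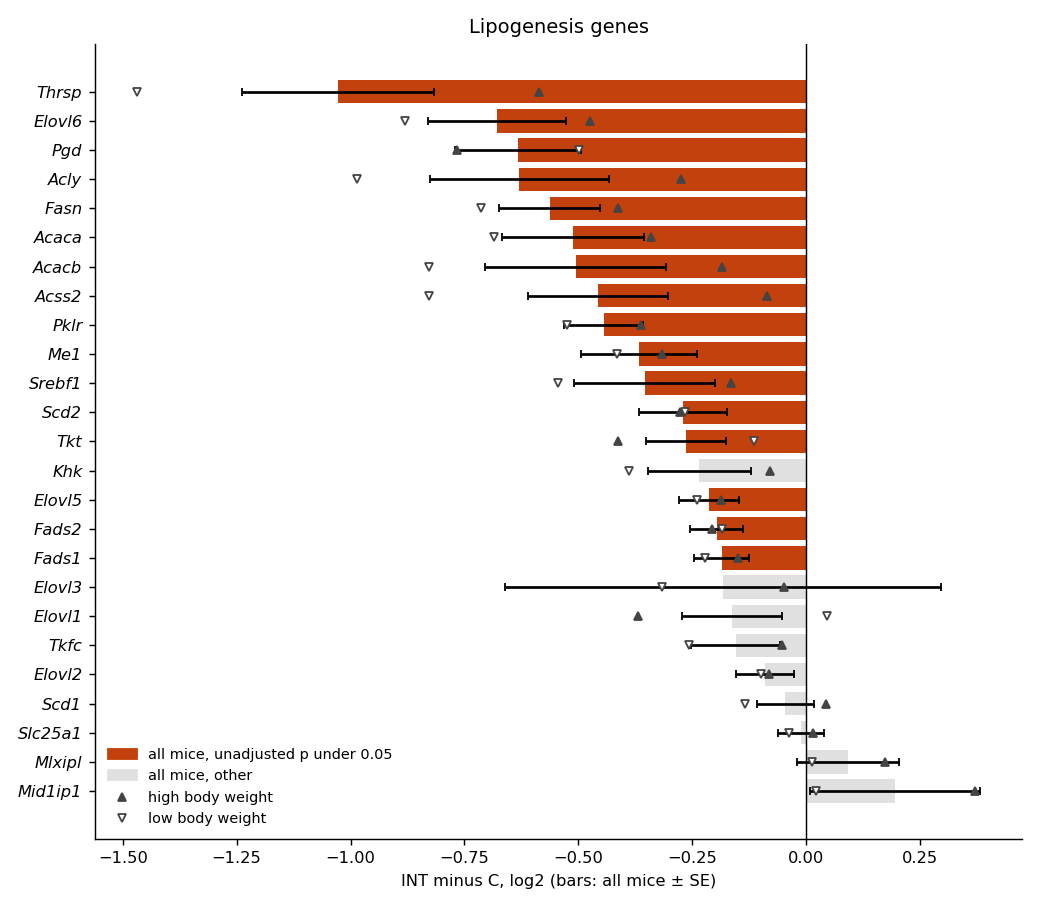
INT minus C difference on the log2 scale (horizontal axis) of the 25 tested lipogenesis genes (vertical axis, sorted). Bars are the fit over all mice with its SE, orange where the unadjusted p was under 0.05, and triangles the differences within high (filled) and low (open) body weight. Of the bars 23 point to lower values in INT, with Thrsp at -1.03 the farthest; Mlxipl and Mid1ip1 point the other way.

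The promoters of the 4 named lipogenesis genes are shown since ChREBP and the CCAAT-binding factor NF-Y, with which SREBP1c acts, are known to read this kind of sequence. The stretches are 250 bases before the start site from RefSeq (GRCm38.p6), 5′ to 3′ on the gene's strand, with motif matches in capitals. The motifs searched were a carbohydrate response element (ChoRE, CACGNG and CNCGTG with 5 bases between them, which reads the same on both strands) and the CCAAT box (CCAAT, or ATTGG on the other strand).
Pklr, chr3:89136373-89136622 (+): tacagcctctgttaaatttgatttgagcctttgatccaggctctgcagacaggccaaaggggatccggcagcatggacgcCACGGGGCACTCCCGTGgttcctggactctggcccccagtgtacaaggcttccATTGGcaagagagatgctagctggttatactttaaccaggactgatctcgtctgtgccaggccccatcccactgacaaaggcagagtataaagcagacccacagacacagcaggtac
Fasn, chr11:120824548-120824797 (-): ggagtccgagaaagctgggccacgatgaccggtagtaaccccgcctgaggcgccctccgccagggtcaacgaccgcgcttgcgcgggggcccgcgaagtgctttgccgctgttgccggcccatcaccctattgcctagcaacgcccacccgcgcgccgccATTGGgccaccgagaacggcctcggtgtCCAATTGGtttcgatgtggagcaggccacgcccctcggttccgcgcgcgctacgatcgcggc
Thrsp, chr7:97417551-97417800 (-): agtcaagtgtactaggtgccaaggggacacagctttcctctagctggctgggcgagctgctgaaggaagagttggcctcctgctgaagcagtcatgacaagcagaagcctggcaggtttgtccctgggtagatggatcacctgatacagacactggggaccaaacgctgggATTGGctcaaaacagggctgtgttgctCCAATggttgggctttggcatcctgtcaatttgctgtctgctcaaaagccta
Pgd, chr4:149166706-149166955 (-): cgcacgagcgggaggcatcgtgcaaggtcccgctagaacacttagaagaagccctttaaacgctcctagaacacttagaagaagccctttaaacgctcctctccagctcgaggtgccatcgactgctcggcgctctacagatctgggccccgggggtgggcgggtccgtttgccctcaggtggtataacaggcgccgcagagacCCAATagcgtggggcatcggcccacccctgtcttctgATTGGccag
The Pklr promoter holds the ChoRE letters from base -170 to -154 before the start, and a CCAAT box on the other strand from -117. The Fasn stretch holds 3 CCAAT boxes, of which the pair that starts at -62 and -59 overlaps, and the Thrsp and Pgd stretches hold 2 each. Of all 32851 RefSeq mouse promoter stretches of this length 13 (0.0396%) hold the ChoRE and 11120 (33.8%) a CCAAT box. The other listed start of Pklr (start 1) and of Pgd (start 2) holds neither, so the stretch printed for these genes is the one with matches. A match is a description of the letters, and no binding was measured.

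Of 18 tested genes of glycogen and gluconeogenesis 17 stood below 0, with a median of -0.21. At an unadjusted p under 0.05, 3 were lower and 0 higher, and none was called. Gbe1, the branching enzyme, was at 11.10, 10.96, 11.39 and 11.09 in the C mice and at 10.61, 10.60, 10.97 and 10.77 in the INT mice (-0.39 ± 0.06, adjusted p = 0.0687). The high INT mock mouse lay just above the lowest C mouse. Ugp2, which makes UDP-glucose, stood at -0.46 ± 0.10 and Gyg, the glycogen primer, at -0.38 ± 0.10 (adjusted p of 0.129 and 0.261). The glycogen synthase Gys2 was at -0.11 ± 0.08, and Ppp1r3b and Ppp1r3c, which bring a phosphatase to glycogen, were at -0.01 ± 0.17 and -0.15 ± 0.27.

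Sterol synthesis genes stood on the other side of 0. Of 20 tested SREBP2 targets and cholesterol genes 6 were higher and 2 lower at an unadjusted p under 0.05, with a median of 0.17. Srebf2, the gene of SREBP2 itself, was at 8.98, 9.02, 8.79 and 8.92 in C and at 9.38, 9.39, 8.95 and 9.37 in INT mice. The high INT mock mouse alone overlapped C (0.35 ± 0.08, adjusted p = 0.196). Msmo1, a sterol methyl oxidase, stood at 0.59 ± 0.19 and the sterol carrier Stard4 at 0.59 ± 0.22, while Dhcr7, an enzyme of the last steps, was at -0.29 ± 0.09, with adjusted p from 0.338 to 0.439.

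Fat burning genes differed little. Of 27 genes of fatty acid oxidation and ketogenesis 3 were higher and 0 lower (median 0.08), with Crot, which moves acyl groups out of peroxisomes, at 0.30 ± 0.10 (adjusted p = 0.375). Of 22 other PPARα targets 1 was higher (median 0.02). The response of a gene to Wy was not called different between the diets for any gene. At an unadjusted p under 0.05, 436 genes (3.05%) differed in the INT minus C difference between Wy and mock mice, with adjusted p of 0.999 at best.

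Genes of fat uptake, storage and triglyceride synthesis lay mostly below 0, with 2 members of each list lower at an unadjusted p under 0.05, and none was called over all mice. Cd36, the fatty acid receptor, ran from 9.88 (low mock) to 12.05 (high Wy) in the C mice and was at 9.46, 9.83, 9.98 and 11.05 in the INT mice (-1.02 ± 0.24, adjusted p = 0.183). INT was below C in each matched comparison, while the ranges overlapped. Of 15 genes of uptake and binding 9 stood below 0 (median -0.08), and the 2 lower ones were Cd36 and the lipoprotein receptor Vldlr (-0.45 ± 0.16). Of 12 genes of the lipid droplet coat 10 stood below 0 (median -0.13), and the 2 were Cidea and the perilipin Plin3 (-0.44 ± 0.18). Of 15 genes of triglyceride synthesis 13 stood below 0 (median -0.13), and the 2 were the acyltransferases Mogat1 (-1.17 ± 0.34) and Mogat2 (-0.28 ± 0.09). Cidec, a droplet fusion protein that is a PPARα target, had 7.66, 10.68, 10.42 and 11.41 in C and 6.68, 10.53, 8.33 and 11.21 in INT mice (-0.85 ± 0.61, adjusted p = 0.675). Its Wy mice lay above its mock mice of the same class in both diets.

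Genes that mark the male and the female liver lay on opposite sides of 0. Of 25 tested male-biased genes 6 were higher and 0 lower in INT (median 0.16), and of 20 female-biased genes 7 were lower and 0 higher (median -0.30), at an unadjusted p under 0.05. Serpina4-ps1 was at 8.97, 9.64, 9.56 and 6.37 in C and at 10.62, 11.80, 10.36 and 11.53 in INT mice (2.44 ± 0.89, adjusted p = 0.415). All INT mice were above all C mice, and the high C Wy mouse stood far below the other C mice. Cyp7b1, an oxysterol hydroxylase, was at 11.19, 10.50, 10.19 and 10.06 in C and at 11.84, 11.23, 11.47 and 10.86 in INT mice (0.86 ± 0.27, adjusted p = 0.338). On the female side, Cyp2b9 was at 8.71, 8.30, 11.95 and 11.93 in C and at 8.47, 6.45, 9.58 and 9.86 in INT mice (-1.63 ± 0.58, adjusted p = 0.406). In both diets its mice of high body weight were above those of low body weight. Cyp2c39 (-0.66 ± 0.14), the steroid enzyme Cyp17a1 (-0.64 ± 0.21) and the receptor Ntrk2 (-0.69 ± 0.23) had adjusted p from 0.129 to 0.381. The members of the Cyp2b and Cyp2c families are close in sequence, so their probes may share signal. The bile acid transporter Slco1a4 was at -0.99 ± 0.20 (adjusted p = 0.124) in a list of 24 with 2 genes higher and 2 lower.

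The cell cycle, annexin and S100, and NRF2 lists each had 4 genes lower at an unadjusted p under 0.05, none of them called. Cell cycle genes had 4 of 16 lower (median -0.32), among them the DNA helicase subunit Mcm2 at -0.38 ± 0.15 and the topoisomerase Top2a at -0.33 ± 0.13. Annexins and S100 genes had 4 of 17 lower (median -0.07), with Anxa6 at -0.28 ± 0.08 and Anxa5 at -0.57 ± 0.17. Of 21 NRF2 targets and glutathione enzymes 4 were lower and 1 higher (median -0.11), with the glutathione transferases Gstm2 at -0.37 ± 0.12 and Gstp1 at 0.32 ± 0.13. In the lists of the respiratory chain, clock, heat shock, ER stress, apolipoproteins, nuclear receptors, and hepatocyte, stellate and endothelial markers, 0 to 2 genes each were higher and 0 or 1 lower, with medians between -0.06 and 0.01. The acute phase list had 1 of 24 lower, Orm3, at 7.16, 7.17, 8.34 and 9.55 in C and 5.43, 5.37, 6.96 and 7.15 in INT mice without overlap (-1.83 ± 0.57, adjusted p = 0.343). The probes of Orm3 may share signal with those of Orm1 and Orm2.

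Within the body weight classes, more genes differed between the diets among the heavy mice. The classes are relative to each diet. The study reports a lower body weight in INT than in C mice after the ad libitum week, so heavy INT and heavy C mice need not weigh alike. In high body weight diet, body weight itself and array code cannot be told apart. Each comparison held 2 INT and 2 C mice, 1 mock and 1 Wy, with the spread taken from all 16 arrays. In high body weight 20 genes were called (0.14%), 5 higher and 15 lower in INT. At an unadjusted p under 0.05, 926 genes were higher (6.49%) and 1265 lower (8.86%). In low body weight none was called by limma (adjusted p of 0.155 at best), and 345 genes were higher (2.42%) and 424 lower (2.97%) at an unadjusted p under 0.05. The test of the difference between the classes called 1 gene, Uap1l1 (0.00701%). All genes called in high body weight are named here, a choice made after their values were seen. The count of 20 changed least without low INT mock or low INT Wy, and more without each other INT or C mouse. Without single mice the count of 20 became 1 (without high C Wy), 4 (without low C mock or low C Wy), 5 (without high C mock or high INT Wy) or 111 (without high INT mock). Of 11 alternatives, 3 of fit or scaling and 8 that left out 1 INT or C mouse, Uap1l1 was called under 11, Anxa2 under 10 and Cyp46a1 under 9. Gprc5b, Slc35f2, Rdh16f2 and Snord87 were called under 6, Cidea, Timp1, Arhgdib and Snora3 under 5 and Mogat1 under 4. Med12l, Lgals1, Cd207, Pcyt1a, Crybg2, P2rx4 and Rab5b were called under 3 and Igfbp2 under 2, so these calls were mostly lost.

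Uap1l1, a relative of the enzyme that makes UDP-N-acetylglucosamine, was at 7.79 and 7.72 in the high C mice (mock and Wy). It was at 6.50 and 6.38 in the low C mice and between 6.32 and 6.61 in all 4 INT mice. The heavy C mice thus stood apart from the other 6, and the high mice on MF throughout, up to 7.63, were near them, while all CR mice were at 6.33 to 6.49. INT minus C was -1.38 ± 0.08 in high body weight (2.6-fold lower, adjusted p = 4.32e-05) and 0.07 ± 0.08 in low body weight (adjusted p = 0.998), a difference of -1.45 ± 0.12 (adjusted p = 0.000991). The fall in high body weight was called under each of 11 alternatives, while the difference between the classes was not called with the 8 INT and C arrays alone (adjusted p = 0.0902). All C and MF arrays carry 1 array code, so the gap between heavy and light C mice lies within it. Both called differences also use the high INT arrays of the other code, for which diet and code cannot be told apart.

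**Figure D3:**
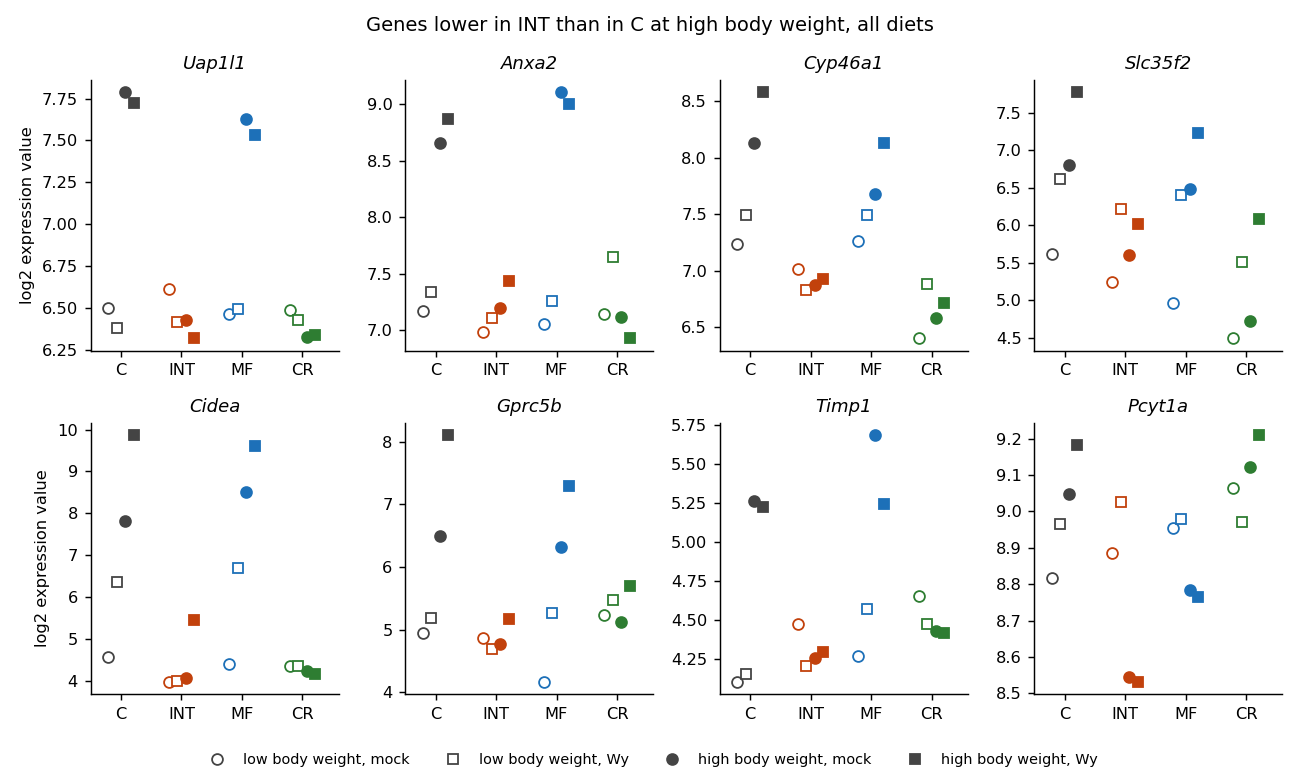
Log2 expression values (vertical axes, a separate scale for each gene) in the 16 mice by diet, for the 8 genes of smallest p among those lower in INT than in C at high body weight. Open points are mice of low and filled points of high body weight, circles mock and squares Wy. The filled C points stand above all INT points for each gene shown; for Pcyt1a the filled INT points are the lowest of all, while for Uap1l1 the INT points sit with the low C mice.

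Anxa2, a calcium-dependent membrane protein, had the same arrangement. It was at 8.66 and 8.87 in the high C mice, at 7.17 and 7.34 in the low C mice, and between 6.98 and 7.44 in the INT mice. The difference in high body weight was -1.45 ± 0.14 (adjusted p = 0.0035). Anxa5 (-0.83 ± 0.14, adjusted p = 0.0519) did not pass. Cyp46a1, a cholesterol 24-hydroxylase, fell by 1.45 ± 0.15 (adjusted p = 0.00389), with 8.13 and 8.58 in the high and 7.24 and 7.50 in the low C mice. All INT mice were below these, at 6.83 to 7.01.

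Genes of fat storage were among the falls in the heavy mice. Cidea, a droplet fusion protein of fatty livers, was at 7.81 and 9.86 in the high C mice and at 4.57 and 6.36 in the low C mice. Of the INT mice 3 were under the low-intensity limit of 4.32, at 3.99 to 4.08, and the high INT Wy mouse was at 5.47. In high body weight it fell by 4.07 ± 0.55 (adjusted p = 0.0374), at least 15.4-fold with values under the limit set to it. Mogat1, which makes diacylglycerol, was at 7.50 and 7.99 in the high C mice, and all INT mice lay between 5.21 and 5.90. It fell by 1.92 ± 0.31 (adjusted p = 0.0449), and the low C mice, at 5.39 and 6.43, overlapped the INT mice. The call of Mogat1 was lost without each of the 8 mice but high INT mock (adjusted p from 0.0564 to 0.297). Pcyt1a, which controls the synthesis of phosphatidylcholine, fell by 0.58 ± 0.09 (adjusted p = 0.0449), from 9.05 and 9.18 to 8.55 and 8.53. Its low C (8.82 and 8.97) and low INT mice (8.89 and 9.03) overlapped. Only the high INT mice, those of the other array code, stood below the rest, so diet and array code cannot be told apart for it. The call of Cidea was lost when any 1 of the C mice or the high INT Wy mouse was left out (adjusted p from 0.0535 to 0.243). The study plotted 4 droplet genes, of which Cidea and Mogat1 were called in high body weight, while Cidec stood at -1.14 ± 0.76 and the hormone gene Fgf21 at -0.01 ± 0.36. The study measured them by Q-PCR in mock mice only, over both weight classes, and found no statistical difference of INT from the other diets. The array values here include Wy mice. These genes were picked by the study in the same mouse experiment and are not independent evidence.

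The remaining falls included membrane and matrix genes. Gprc5b, an orphan receptor, was at 6.49 and 8.10 in the high C mice and between 4.70 and 5.18 in the INT mice (-2.32 ± 0.33, adjusted p = 0.0425). Slc35f2, a solute carrier, was at 6.80 and 7.77 in the high C and at 5.60 and 6.01 in the high INT mice (-1.49 ± 0.20, adjusted p = 0.0359). Lgals1, a galectin, was at 11.08 and 10.79 in the high C and at 9.37 and 9.64 in the high INT mice (-1.43 ± 0.22). Timp1, an inhibitor of matrix proteases, was at 5.26 and 5.22 in the high C mice and at 4.11 to 4.47 in the other 6, 5 of them under the low-intensity limit, both high INT mice included. With such values set to the limit its fall in high body weight was at least 1.89-fold, and it passed the intensity filter through the arrays in which it was high. The study plotted 4 inflammation and fibrosis genes, Saa2, Lcn2, Mt2 and Timp1. In high body weight 2 of them stood below and 2 above 0 (median 0.05, up to 0.46). Timp1 alone was lower at an unadjusted p under 0.05. In low body weight 3 stood below and 1 above 0 (median -1.21). Cd207, a lectin receptor of some immune cells (-1.37), Crybg2 (-0.79), Arhgdib (-0.77), the endosome protein Rab5b (-0.59) and the ATP-gated channel P2rx4 (-0.52) complete the falls. The adjusted p was 0.0492 for Crybg2 and Arhgdib and 0.0449 for the others from Lgals1 on.

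The 5 genes that rose in the heavy INT mice were Med12l, 2 small nucleolar RNAs, a retinol dehydrogenase and Igfbp2. Igfbp2, a binding protein of insulin-like growth factors that insulin holds down, was at 9.44 and 9.88 in the high C mice, at 10.91 and 10.63 in the low C mice and at 10.61 to 11.17 in the INT mice (1.00 ± 0.16, adjusted p = 0.0449). Without any 1 of the 8 mice it was not called (adjusted p from 0.0535 to 0.270). Rdh16f2 was at 8.61 and 8.52 in the high C mice and at 9.73 and 9.55 in the high INT mice (1.07 ± 0.16, adjusted p = 0.0449), with low C mice at 9.84 and 9.60. In both genes the low C mice overlapped the INT mice. Snord87 (0.78 ± 0.11) and Snora3 (0.76 ± 0.12), which guide modification of ribosomal RNA, had adjusted p of 0.0425 and 0.0449, with the 2 INT mice of the other array code the highest of the 8 for Snora3.

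**Figure D4:**
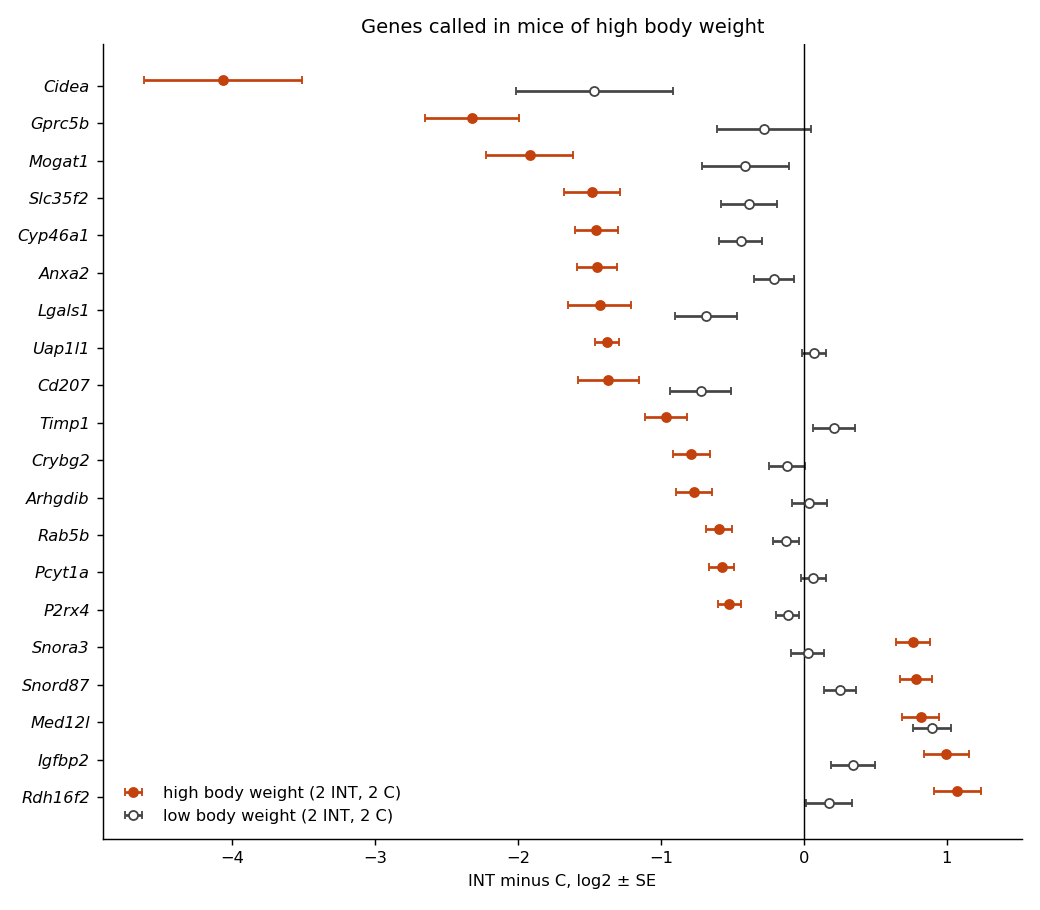
INT minus C difference on the log2 scale (horizontal axis, ± SE of the fit) of the 20 genes called in high body weight (vertical axis, sorted), in mice of high (filled, orange) and low (open, grey) body weight, 2 INT and 2 C mice each. Most open points lie near 0, Med12l is as high in low as in high body weight, and the filled points of Cidea (-4.07) and Gprc5b (-2.32) are the farthest from 0.

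Markers of macrophages and of antigen presentation were lower in the heavy INT than in the heavy C mice at an unadjusted p under 0.05, and none was called. Over all tested genes 8.86% were lower and 6.49% higher in high body weight at that threshold, and 2.97% lower and 2.42% higher in low body weight. Of 22 tested markers of lipid-associated and monocyte-derived macrophages 14 were lower and 0 higher in high body weight at an unadjusted p under 0.05 (median -0.80), against 1 of 22 lower in low body weight (median 0.04). Of 8 MHC class II genes 6 were lower in high body weight (median -1.12), and 2 higher in low body weight (median 0.31). Of 14 Kupffer cell markers 6 were lower and 1 higher in high (median -0.47), and 0 differed in low body weight (median 0.24). In low body weight all 14 Kupffer cell markers and all 8 MHC class II genes stood above 0. Of the 22 lipid-associated and monocyte-derived macrophage markers 11 stood above and 11 below 0. The mean Kupffer marker level was 8.74 and 8.65 in the low C mice, 8.67 in the low INT mock mouse and 9.21 in the low INT Wy mouse, so the low INT Wy mouse alone stood above them. The mean MHC class II level was 7.36 and 7.34 in the low C and 7.67 and 7.62 in the low INT mice. None of these genes was called in low body weight or between the classes. H2-Aa, which presents antigens, was at 10.64 and 10.96 in the high C, 9.46 and 9.31 in the low C, 10.15 and 9.15 in the high INT and 9.59 and 9.68 in the low INT mice. The high INT Wy mouse was the lowest of the 8, and the high INT mock mouse was above both low C mice (-1.15 ± 0.29 in high body weight, adjusted p = 0.103). Cd68, a lysosomal macrophage marker that the study plotted, was at 9.31 and 9.13 in the high C mice and at 8.16 to 8.71 in the other 6 (-0.98 ± 0.24, adjusted p = 0.0999). It was the farthest from 0 of the 4 macrophage genes that the study plotted, Ccl2, Ccl3, Adgre1 and Cd68. In high body weight all 4 stood below 0 (median -0.65, from -0.98 to -0.32), 2 of them at an unadjusted p under 0.05. In low body weight 3 stood above and 1 below 0 (median 0.26). Gpnmb, a marker of lipid-laden macrophages, was at 7.87 and 5.74 in the high C mice and at 4.51 to 4.76 in the other 6 (-2.19 ± 0.54, adjusted p = 0.098), so 1 mouse carried most of its difference. In whole liver fewer cells of a type and less RNA per cell cannot be told apart.

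The mean log2 level of the tested lipid-associated and monocyte-derived macrophage markers was 7.16 and 6.80 in the high C mice and 6.31 and 6.33 in the low C mice. In the INT mice it was 6.25 and 6.30 (high) and 6.17 and 6.39 (low), so the heavy C mice stood above the other 6. In low body weight the INT mock mouse was the lowest and the INT Wy mouse the highest of the 4. The part of these cells in the differences of Anxa2, Lgals1, Timp1 and the other genes called in high body weight was not tested. The mean level of the hepatocyte markers differed less, from 12.8 to 12.9 in both diets. The adipocyte markers Adipoq and Lep did not pass the intensity filter, and the mean of the 6 tested adipocyte genes was 7.78 to 8.22 in C and 7.75 to 8.30 in INT mice. Stellate cell markers were without a gene lower at an unadjusted p under 0.05 in high body weight (median -0.12), and of 32 matrix genes 7 were lower (median -0.18), with Timp1 called. The share lower over all tested genes was 8.86% in that class.

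**Figure D5:**
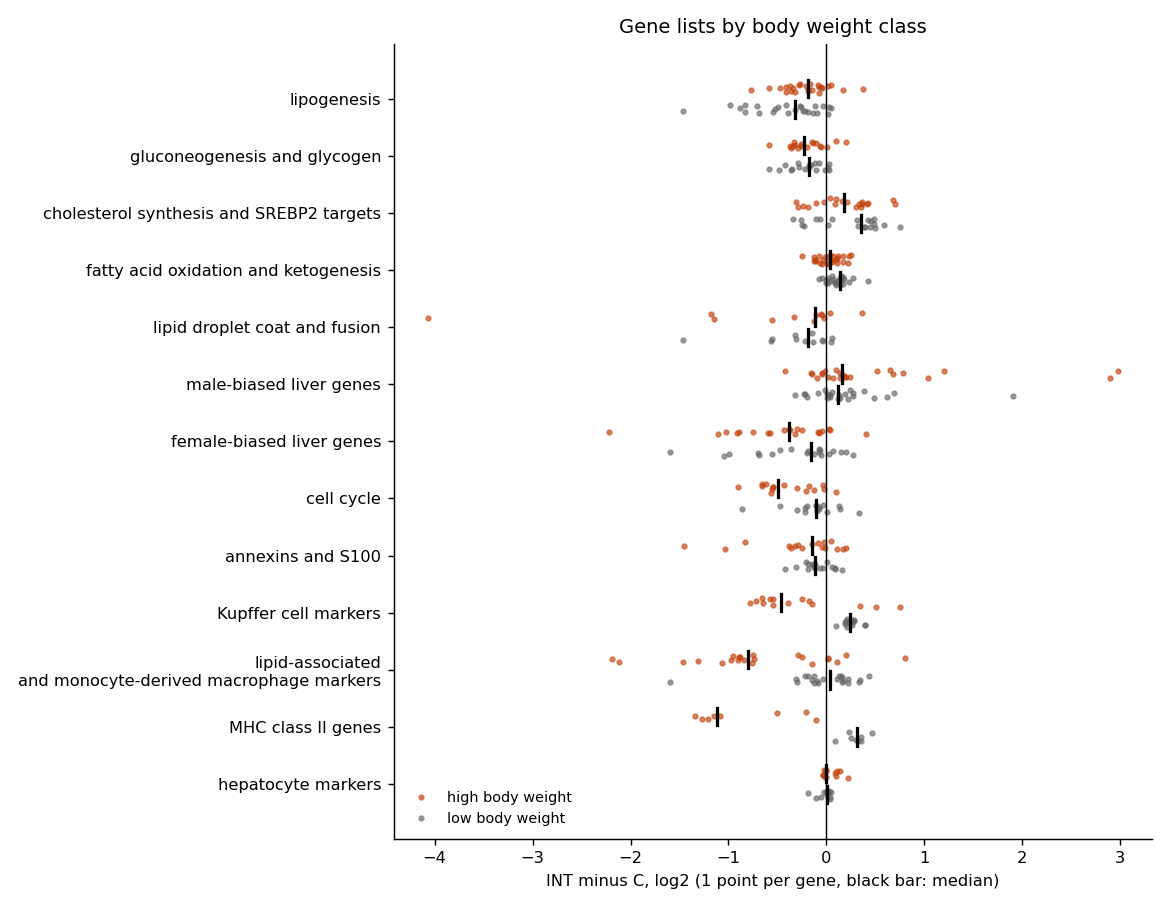
INT minus C difference on the log2 scale (horizontal axis) of the tested genes of 13 lists (vertical axis), 1 point per gene, in high (orange) and low (grey) body weight, with the median of each as a black bar. The medians of the macrophage and MHC class II lists lie at -0.80 and -1.12 in high and at 0.04 and 0.31 in low body weight, while lipogenesis lies below 0 in both (-0.19 and -0.32).

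Among the light mice no gene passed. Med12l was again the higher gene of smallest p (0.90 ± 0.13, adjusted p = 0.155), and Aqp8 (-1.31), Atp6v0d2 (-1.59) and Fasn (-0.71), named above over all mice, were among the 5 lower genes of smallest p. Csad, an enzyme of taurine synthesis, was at 8.09 and 9.16 in the low C and at 10.75 and 10.95 in the low INT mice (2.22 ± 0.32, adjusted p = 0.155), against 0.50 ± 0.32 in high body weight. Chrna4, a nicotinic receptor subunit, was at 8.71 and 8.50 in the low C and at 5.22 and 6.43 in the low INT mice (-2.78 ± 0.44, adjusted p = 0.164), and at 7.03 to 7.51 in the heavy mice of both diets. Pdzk1ip1 stood at -1.47 ± 0.22 (adjusted p = 0.155) and Adnp2 at 0.55 ± 0.10 (adjusted p = 0.329). The difference between the classes was not called for Csad (adjusted p = 0.334), Chrna4 (adjusted p = 0.312) or Pdzk1ip1.

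As a description of the whole arrays, the high INT mock mouse differed from the high C mock mouse by a root-mean-square of 0.283 over the tested genes and from the low C mock mouse by 0.218. Among Wy mice these were 0.324 and 0.256. Low INT and low C mice differed by 0.215 (mock) and 0.239 (Wy), and the heavy from the light C mice by 0.290 and 0.275. The heavy INT mice were therefore nearer to the light than to the heavy C mice, in 1 pair of arrays per treatment. Both heavy INT arrays carry the other array code, so diet and code cannot be told apart in their distances.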

How the data were processed

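RNA of whole liver was measured on Affymetrix Mouse Gene 1.1 ST arrays, 1 per mouse. The deposited values are log2 intensities that the authors made with RMA, a method that removes background, brings the arrays to a common distribution and combines the probes of each transcript cluster. Its software version is not given in the sources used. Precision is limited by the number of arrays. Of 35556 clusters, 21218 matched 1 gene in the platform annotation, 1881 several and 12457 were not listed. Symbols were updated through RefSeq (21185 clusters matched). Where a gene had several clusters (1386 genes), the cluster with the highest mean stood for it, giving 18820 genes. As in the study's methods, genes over an intensity of 20 (log2 4.32) on 5 or more of the 16 arrays were kept, 14275 in all.

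Genes were fitted with limma 3.58.1 in R 4.3.3 on all 16 arrays (4 diets), treatment and weight class being further terms (10 residual degrees of freedom). The differences within and between body weight classes came from means of diet by class with treatment as a term, and those by treatment from means of diet by treatment with class as a term (7 each). The methods name no gene-wise test for the arrays. P-values were adjusted by Benjamini-Hochberg over all tested genes of a comparison, with calls at an adjusted p under 0.05. Errors beside differences are standard errors of the fit. The fits were tested on simulated data.

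The members, the 47 gene lists (914 entries, 838 genes, 712 tested) and the naming rule were chosen with earlier results of these data known. The rule takes, where under 6 genes were called and went the same way in all 4 matched comparisons, those plus the smallest p up to 8 per direction, up to 4 members of smallest p of each list described, all genes of the study's 3 panels, and 5 of smallest p per difference test and per direction in each class. Predicted genes, olfactory and vomeronasal receptors and pseudogenes other than Serpina4-ps1 were skipped. Alternatives were the 8 arrays alone, the matched cell or the pair as a block, the array code, other filters, centring, weights, treatment strata and leaving out each mouse.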

Additional observations from a re-analysis of the deposited data

Results flagged for a closer look

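The INT minus C difference of Uap1l1 in high minus that in low body weight was -1.45, the 1 gene for which the test of that difference passed.

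In 216 named genes, 432 groups of 4 mice were checked for a mouse far from the other 3 of its diet, and 15 (3.47%) had one, where chance gives about 1 in 20. The flags are therefore given as values only. The low INT mock mouse was low for Fasn (10.85, next 11.17) and Aldh1a7 (10.31). The low INT Wy mouse was high for the macrophage genes Adgre1 (8.69, next 7.92), Marco (7.47, next 5.68) and Timd4 (8.00, next 7.12). The high INT Wy mouse was high for Cidea (5.47, next 4.08), Ucp3 (5.08), Ngfr (7.68) and Psph (6.29), and low for Abcg1 (7.34). The high INT mock mouse was low for Srebf2 (8.95, next 9.37) and high for Sesn2 (7.29). In C the high mock mouse was high for Lpin3 (6.20), and the low mock mouse low for Myh11 (5.32) and Rbm19 (5.95).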

How the results depend on the processing

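Over all mice the count of 1 called gene became 7 with the 8 INT and C arrays alone, 6 with centred arrays, 5 with a trended and robust prior and 10 with array weights. It became 0 with the array code as a term (713 genes at an unadjusted p under 0.05), with the arrays of the first code alone (769), within mock (660) and within Wy mice (1021). Mice were matched across the diets by their class and treatment labels alone, and no batch is stated for them. With each combination of class and treatment as a block 9 genes were called. With the mock and Wy pair within a diet as a random block, added after seeing the data, the count stayed at 1. The correlation of a pair that this fit estimated was 0.0741. The heavy minus light difference in mock mice correlated over genes with that in Wy mice at 0.531 in C and at 0.0839 in INT. Leaving out 1 mouse gave 1 to 16 calls, with 16 without high CR Wy, 9 without low MF mock, 5 and 4 without low CR Wy and low CR mock, 3 without high INT mock, and 2 without high C Wy, low C Wy or low INT mock. Med12l was called under all of these but the 4 that gave 0, where it stood at 0.84 to 0.88 (limma adjusted p from 0.101 to 0.386). The filters and the mean of clusters also gave 1.

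In high body weight the count of 20 became 46 with 8 arrays alone, 87 centred and 53 with the trended prior, of which 13, 20 and 19 were among the 20, and 1 to 111 without 1 mouse. In low body weight the count of 0 became 0 to 2, with 2 without low INT mock. The difference between the classes became 0 with 8 arrays alone (1321 unadjusted) and 1 to 6 without 1 mouse, with 6 without high INT mock and 2 without high C mock or low INT mock. The difference between treatments became 0 to 1, with 1 without high INT Wy or low C Wy. Where a class loses a mouse, the lone mouse is assumed to vary like the others. The cause of these shifts was not tested. Over 29 alternatives none of the 216 named genes changed its direction with a call in either fit. For genes other than Med12l such a change could count only where the alternative called the gene. Without a call in either fit, the sign changed by more than the SE in 33 combinations of gene and alternative. With 4 mice a diet and 2 a class, small differences were not detectable.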
